A study of Homo sapiens with 12 samples.

Results

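The genes described here are 10 classical targets of NF-κB: the chemokine genes CXCL1, CXCL2, CXCL3 and CXCL8, the inhibitor genes NFKBIA and TNFAIP3, the adhesion gene ICAM1, the survival gene BIRC3, and RELB and NFKB2, which encode NF-κB subunits. They were chosen by symbol, with earlier results of these data known, and all 10 were found among the 58233 genes of the count table. RNA was sequenced from HCT116 cells, an established human colorectal carcinoma line. Both lines that were compared carry a transgene for the rice F-box protein OsTIR1 at the AAVS1 locus, under a promoter that doxycycline (Dox) switches on. In the SDS22-degron line the alleles of PPP1R7, the gene for SDS22, were in addition tagged with mAID-mClover, so that the auxin IAA directs SDS22 to the proteasome once OsTIR1 is made. SDS22 is a regulatory partner of protein phosphatase-1. Each line was sequenced without treatment and after 48 h of Dox (2 µg/ml) plus IAA at 500 µM (Dox/IAA), giving 4 groups of 3 biological replicates and 12 libraries. The tagged line was grown from isolated colonies after drug selection, so that tagging, selection and colony growth cannot be told apart in a comparison of the lines. In these bulk samples, fewer cells that express a gene and less RNA of it per cell cannot be told apart either.

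NF-κB dimers are held in the cytoplasm by IκB proteins, of which IκBα, the product of NFKBIA, is the best known. Signals from cytokine receptors activate the IκB kinase, IκBα is degraded, and the freed dimers bind κB sites near their targets. Several targets encode brakes on the pathway, such as IκBα itself and A20, the product of TNFAIP3. In epithelial cells the CXCL chemokines are typical targets that attract neutrophils, and they are known to be made by colorectal carcinomas. The comparisons address how the level of these genes differed between the lines with and without Dox/IAA, and whether Dox/IAA acted differently on them in the SDS22-degron line.

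κB sites are what these genes are known to share, and the bases around them are therefore shown first. The RefSeq promoter table (GRCh38.p14) had an entry for 9 of the 10 genes, and the 250 bases before the listed start were searched on both strands. The motifs were the κB consensus, which has 10 letters, and GGAATTTCC, which can lie within a match of the consensus. The consensus was found before 7 of the 9 genes and before 8.22% of 27305 genes in the table. GGAATTTCC was found before 6 of the 9 genes and before 0.502% of all genes. Each line below gives 30 bases on the strand of the gene, with the letters of 1 match in capitals. TNFAIP3 has a second match, which begins in the lower-case end of its first line and is shown on a line of its own.
CXCL1: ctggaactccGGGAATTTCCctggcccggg
CXCL2: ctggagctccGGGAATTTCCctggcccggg
CXCL3: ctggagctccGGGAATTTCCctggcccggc
CXCL8: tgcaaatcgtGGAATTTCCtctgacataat
NFKBIA: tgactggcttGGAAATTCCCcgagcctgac
TNFAIP3: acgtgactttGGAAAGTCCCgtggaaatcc
TNFAIP3, second match: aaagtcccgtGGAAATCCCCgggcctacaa
ICAM1: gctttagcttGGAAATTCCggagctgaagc
BIRC3: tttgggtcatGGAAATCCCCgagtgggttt

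The windows of CXCL1, CXCL2 and CXCL3 held the same 10 capital letters and differed from each other by 1 or 2 of 30 bases. They lie at chr4:73869304-73869333 on the plus strand, chr4:74099254-74099283 on the minus strand and chr4:74038749-74038778 on the minus strand. The window of CXCL8 lies on the same chromosome, at chr4:73740468-73740497 on the plus strand. That of NFKBIA lies at chr14:35404811-35404840 on the minus strand, and the capitals match the consensus when read on the opposite strand. The same holds for TNFAIP3 at chr6:137867182-137867211 and chr6:137867194-137867223, for ICAM1 at chr19:10270924-10270953, where GGAATTTCC was matched, and for BIRC3 at chr11:102317275-102317304, all on the plus strand. NFKB2 had matches of the consensus before 2 of its 3 listed starts, and RELB had no entry. In the count table some genes begin further upstream, and the matches of CXCL2, CXCL3, TNFAIP3, ICAM1 and NFKB2 then fall inside the gene. A match describes the letters and does not show that a factor bound there.

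The libraries held 12133915 to 14657508 counted reads, and the median library had 12662965. Of the colon epithelium markers 7 of 10 reached 1 CPM (counts scaled to library size), among them EPCAM, KRT8 and CDX2, while CDX1 and CDH17 were at 0. None of 12 leukocyte markers and none of 5 endothelial markers reached 1 CPM. The summed leukocyte markers were at 0.688 to 1.81 CPM in all libraries, with CD3E and MS4A1 at 0. Of 7 fibroblast markers COL1A1 alone did, and COL1A2, DCN, LUM and PDGFRA were at 0. The summed fibroblast markers ranged from 9.96 to 13.9 CPM in untreated and from 17.3 to 22.9 CPM in treated parental cells, and from 13.8 to 15.8 and from 21.3 to 31.7 CPM in the corresponding SDS22-degron cells. The transcript of PPP1R7 was at 43.7 ± 3.82 and 45.4 ± 4.11 CPM in parental cells and at 44.02 ± 2.95 and 47.9 ± 3.39 CPM in SDS22-degron cells, each first untreated and then treated (SD, n = 3). Its transcript says nothing about the degradation of the protein, and its reads may include those of PASK, which overlaps it.

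Levels are given as CPM after TMM normalization. Differences were tested with the quasi-likelihood test of edgeR over the 16657 genes that passed the filter on low counts, and a gene was called at a Benjamini-Hochberg adjusted p under 0.05. The filter kept 7 of the 10 genes, and CXCL2, CXCL3 and ICAM1 did not pass it. CXCL1 had fewer than 10 reads in all parental libraries and passed only through the SDS22-degron line, so the number of genes that passed is itself no result. Because the genes were chosen with earlier results of these data known, the counts that follow only describe them. Between the treated lines, 6 of the 7 were higher in SDS22-degron cells and 0 were lower, with a background over all tested genes of 21.8% higher and 23.1% lower. As the 6 include CXCL1, the count without it was 5 of 6. The filter at 1 CPM gave the same count but is no independent check. CXCL8 passed that filter only through the SDS22-degron line, as neither parental group reached 1 CPM in every library. Between the untreated lines 4 were higher and 0 lower, with a background of 13.2% and 15%. Dox/IAA raised 1 and lowered 0 in SDS22-degron cells, with a background of 26% and 25.5%. In parental cells it raised 0 and lowered 2, with a background of 15.9% and 15.7%. The difference between both Dox/IAA effects, which is the interaction, was called for 0 of 7, against 6.03% of all genes in the higher and 8.35% in the lower direction. At an unadjusted p under 0.05, NFKBIA was in addition lower with Dox/IAA in SDS22-degron cells and called in the interaction, and the other counts of 0 stayed at 0. DESeq2 gave the same counts of 0.

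The median log2 fold change of the 7 genes was 0.65 between the treated and 0.61 between the untreated lines, or 0.61 and 0.52 without CXCL1. It was 0.02 for Dox/IAA in SDS22-degron cells and −0.24 in parental cells, or 0.04 and −0.13 without CXCL1, while the medians of all tested genes were between −0.01 and 0.01 in these comparisons. All 3 treated SDS22-degron libraries lay above all 3 treated parental libraries for 9 of the 10 genes, the exception being NFKB2, for 6 of the 7 tested ones and for 5 of 6 without CXCL1. Over all tested genes this held for 25.7%. The comparison of the treated lines contains the difference that was already present without Dox/IAA, so both are given for each gene.

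**Figure D1:**
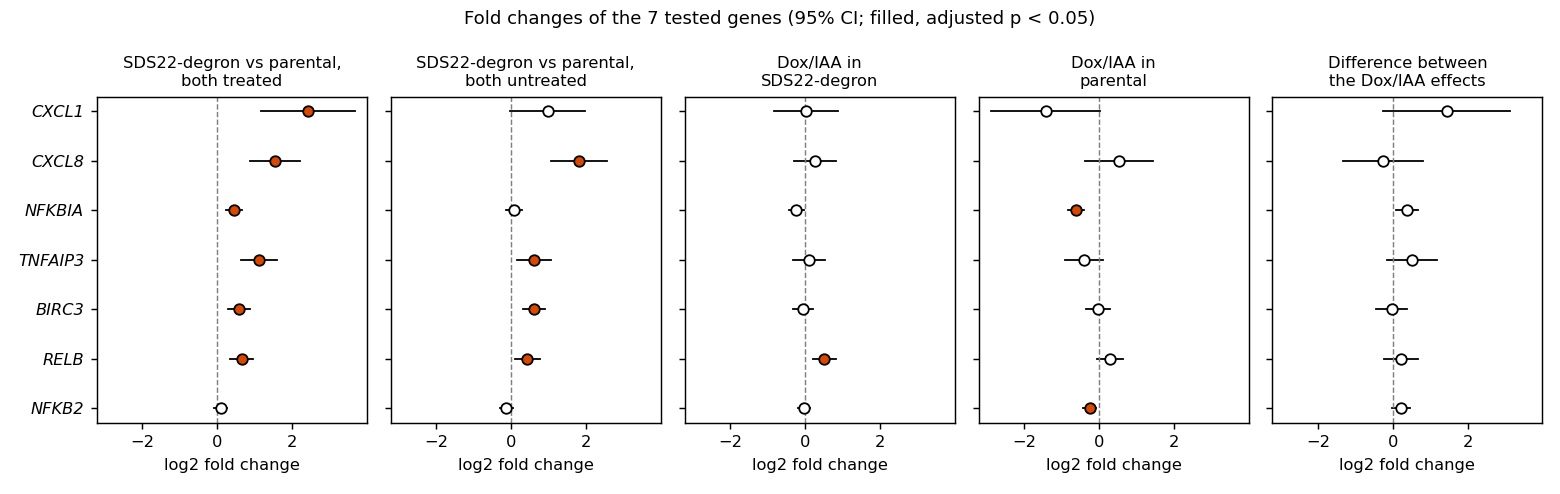
Log2 fold changes (x axis) of the 7 genes that passed the filter (y axis) in the 4 comparisons and in the difference between both Dox/IAA effects. Points are estimates, lines are 95% confidence intervals and filled points have an adjusted p under 0.05. In the left panel 6 of 7 points are filled, in the panel of Dox/IAA in SDS22-degron cells only RELB is, and in the right panel none is.

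CXCL8, also named interleukin-8, is the main neutrophil attractant of the group. Its mRNA (chr4:73740506-73743716) was at 0.675, 1.17 and 0.577 CPM in untreated parental cells and at 0.825, 1.74 and 1.02 CPM after Dox/IAA. In SDS22-degron cells it was at 2.33, 2.27 and 4.10 CPM untreated and at 3.66, 2.56 and 4.28 CPM treated. All 6 SDS22-degron libraries thus lay above all 6 parental libraries, while within each line the treated and untreated values overlapped. Between the lines CXCL8 was higher by 1.81 on the log2 scale without Dox/IAA (SE 0.359, edgeR adjusted p = 0.000953) and by 1.55 with it (SE 0.321, edgeR adjusted p = 0.000705). These are folds of 3.51 and 2.92. Dox/IAA did not pass the test in either line, with 0.28 (95% CI −0.29 to 0.84) in SDS22-degron and 0.54 (−0.36 to 1.45) in parental cells, and the difference between these was −0.26 (−1.33 to 0.80). The values rest on 7 to 54 reads per library.

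CXCL1, CXCL2 and CXCL3 encode the GRO chemokines, which act on the receptor CXCR2 and whose genes are closely related. CXCL1 (chr4:73869393-73871242) was counted 7, 8 and 6 times in untreated and 4, 0 and 4 times in treated parental libraries. In SDS22-degron libraries it was counted 23, 11 and 13 times untreated and 24, 12 and 8 times treated. The mean levels were 0.570 ± 0.0679, 0.205 ± 0.178, 1.14 ± 0.479 and 1.14 ± 0.613 CPM in this order (SD, n = 3). The lowest SDS22-degron library was above the highest parental one, and treated parental cells were the lowest group. CXCL1 was higher by 2.42 between the treated lines (SE 0.594, edgeR adjusted p = 0.00274). As it entered the test only through its counts in the SDS22-degron line, this value only describes it. Between the untreated lines the difference was 0.98 (95% CI −0.02 to 1.98, edgeR adjusted p = 0.137) and did not pass. In parental cells Dox/IAA gave −1.42 (−2.89 to 0.04, edgeR adjusted p = 0.130), in SDS22-degron cells 0.02 (−0.83 to 0.87), and the difference between both was 1.44 (−0.25 to 3.14, edgeR adjusted p = 0.252). The untreated difference was 0.61 without untreated SDS22-degron replicate 1, which held 23 reads. Without treated parental replicate 2, which held 0 reads, the parental value was −0.87 and the difference between both 0.89, and the latter was 0.92 without treated SDS22-degron replicate 1.

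CXCL2 (chr4:74097035-74099293) was counted 6, 5 and 2 times in untreated and 2, 0 and 2 times in treated parental libraries. It had 6, 6 and 5 reads in untreated and 7, 6 and 4 in treated SDS22-degron libraries. The libraries of both treated groups did not overlap, but those of both untreated groups did. Summed over libraries and divided by library size, the ratio of the treated lines was 4.31 (exact 95% interval 1.41 to 17.6), and that of the untreated lines was 1.16 (0.531 to 2.60).

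CXCL3 (chr4:74036589-74038807) was counted 4, 4 and 5 times in untreated and 1, 3 and 3 times in treated parental libraries. SDS22-degron libraries held 7, 5 and 9 reads untreated and 10, 6 and 6 treated. As for CXCL2, the libraries of the treated lines did not overlap, and those of the untreated lines did. The treated ratio was 3.19 (1.32 to 8.83) and the untreated ratio 1.43 (0.685 to 3.12). These intervals cover counting error only.

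When the filter on low counts was left out, CXCL2 and CXCL3 passed the test between the treated lines. The log2 fold changes were 2.00 (SE 0.771, edgeR adjusted p = 0.0409) and 1.61 (edgeR adjusted p = 0.0484). This fit was less strict for CXCL1, with an unadjusted edgeR p of 1.58e-06 against 0.000692 in the main fit. Both calls are thus weak, as they lie close to the threshold at no more than 7 and 10 reads per library. Since the 3 genes are related, the share of 75-base stretches of their transcripts, the length of the reads, that also occur in another gene was counted. This was 0.233% for CXCL1, 7.56% for CXCL2 and 4.57% for CXCL3, in each case with a gene of the trio, and 0% for the other 7 genes. The count of each could thus include reads of another of the 3 over these stretches, and the 3 were also summed.

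The summed reads of CXCL1, CXCL2 and CXCL3 were 17, 17 and 13 in untreated and 7, 3 and 9 in treated parental libraries. They were 36, 22 and 27 in untreated and 41, 24 and 18 in treated SDS22-degron libraries. The 4 groups held 47, 19, 85 and 83 reads. Treated parental cells were thus the group that stood apart on the low side, and the SDS22-degron groups overlapped. Between the treated lines the sum was higher by 2.12 on the log2 scale (SE 0.392, edgeR adjusted p = 0.000237). In parental cells it decreased by 1.36 with Dox/IAA (SE 0.438, edgeR adjusted p = 0.0239), and in SDS22-degron cells it was 0.08 (95% CI −0.53 to 0.69). The untreated lines differed by 0.68 (0.00 to 1.36, edgeR adjusted p = 0.128), and the difference of the Dox/IAA effects was 1.44 (SE 0.527, edgeR adjusted p = 0.0759). The call in parental cells was lost without untreated replicate 1 or 2 or treated replicate 1 or 2 of this line (adjusted p of 0.0650, 0.0551, 0.0515 and 0.0873), and the interaction was called without treated SDS22-degron replicate 3 (adjusted p = 0.0495). With the replicate number as a block the interaction was called as well (1.45, edgeR adjusted p = 0.0361).

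**Figure D2:**
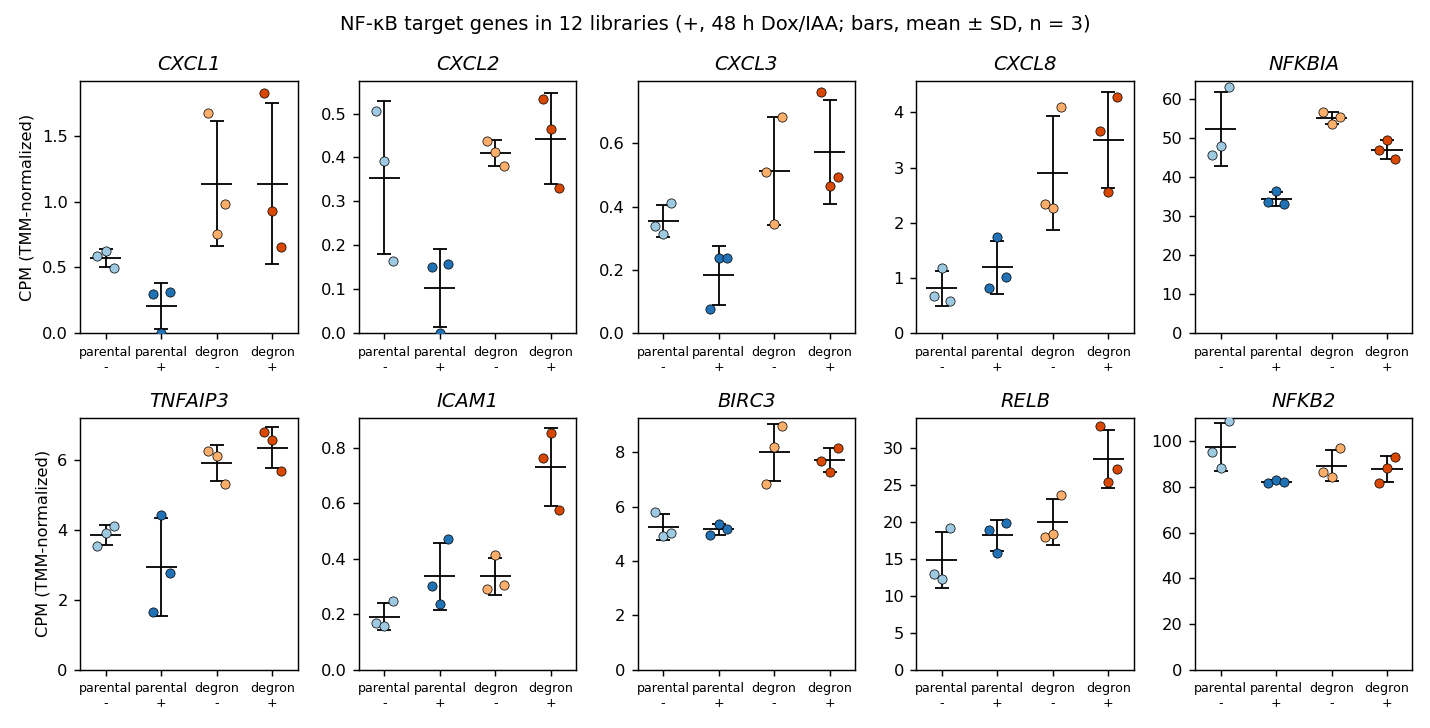
TMM-normalized CPM (y axis, linear from 0, one scale per gene) of the 10 genes in the 4 groups (x axis; +, 48 h Dox/IAA). Points are libraries in the order of replicates 1 to 3, and bars are mean ± SD (n = 3). For CXCL8 and BIRC3 all SDS22-degron points lie above all parental points in both states, and for NFKBIA treated parental cells form the lowest group.

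NFKBIA encodes IκBα, which binds NF-κB dimers and is itself induced by them. NFKBIA (chr14:35401511-35404749, 5 exons) was at 45.7, 47.9 and 63.0 CPM in untreated parental cells and at 33.7, 36.3 and 33.1 CPM after Dox/IAA. In SDS22-degron cells it was at 56.6, 53.5 and 55.3 CPM untreated and at 46.9, 49.4 and 44.6 CPM treated. The treated libraries lay below the untreated ones in both lines, and treated parental libraries were below all others. In parental cells NFKBIA decreased by 0.60 on the log2 scale with Dox/IAA (SE 0.0997, edgeR adjusted p = 0.000197). In SDS22-degron cells the change was −0.23 (SE 0.0967, edgeR adjusted p = 0.0535), which did not pass the test. The lines did not differ beyond their spread when untreated, with 0.08 (95% CI −0.12 to 0.28), and treated SDS22-degron cells were higher by 0.45 (SE 0.10, edgeR adjusted p = 0.00122).

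The difference of the Dox/IAA effects on NFKBIA was 0.37 (95% CI 0.08 to 0.66, edgeR adjusted p = 0.0820). It passed the threshold without untreated parental replicate 1, with 0.45 (adjusted p = 0.0394), and was 0.20 without untreated parental replicate 3 (adjusted p = 0.275). It also passed without the filter on low counts (adjusted p = 0.0484), with the GC correction (0.0496) and with this and the replicate block (0.0419). The change in SDS22-degron cells passed without untreated parental replicate 1, 2 or 3 or treated parental replicate 2, with −0.25, −0.25, −0.25 and −0.23 (adjusted p of 0.0275, 0.0390, 0.00843 and 0.0474), and with the replicate block (−0.23, edgeR adjusted p = 0.0439). Without untreated parental replicate 3, the library with the highest NFKBIA level, the untreated lines differed by 0.25 (adjusted p = 0.0306).

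TNFAIP3 encodes A20, a ubiquitin-editing enzyme that ends the signal upstream of the IκB kinase. TNFAIP3 (chr6:137867188-137883312, 10 exons) was at 3.55, 3.91 and 4.12 CPM in untreated parental cells and at 1.65, 4.42 and 2.75 CPM after Dox/IAA. SDS22-degron cells had 6.27, 6.12 and 5.31 CPM untreated and 6.79, 6.58 and 5.68 CPM treated. All SDS22-degron libraries were above all parental ones, and the treated parental libraries were spread more widely than any other group. TNFAIP3 was higher in SDS22-degron cells by 1.12 between the treated lines (SE 0.226, edgeR adjusted p = 0.000547) and by 0.61 between the untreated lines (SE 0.217, edgeR adjusted p = 0.0417).

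For TNFAIP3, the call between the treated lines was kept whichever library was left out (log2 fold changes of 0.82 to 1.53). That between the untreated lines was lost when any of the 6 untreated libraries was left out, with adjusted p between 0.0514 and 0.114, and with the GC correction (adjusted p = 0.0615). Dox/IAA gave 0.11 (95% CI −0.31 to 0.52) in SDS22-degron and −0.40 (−0.91 to 0.12) in parental cells. Without treated parental replicate 2, the library with the highest level in its group, the parental value was −0.81 (adjusted p = 0.0114) and the difference of both effects was 0.92 (adjusted p = 0.0391), while with all libraries this difference was 0.50 (adjusted p = 0.315). Without treated parental replicate 1, the library with the lowest level, both values were smaller, at −0.11 (adjusted p = 0.759) and 0.21 (adjusted p = 0.653). A non-coding gene on the opposite strand overlaps TNFAIP3 and had 15 reads in all.

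BIRC3 encodes cIAP2, a ubiquitin ligase of the TNF receptor complex that counters cell death. BIRC3 (chr11:102317450-102339403, 12 exons) was at 5.82, 4.93 and 5.03 CPM in untreated parental cells and at 4.95, 5.37 and 5.19 CPM after Dox/IAA. It was at 6.85, 8.18 and 8.96 CPM in untreated and at 7.70, 7.28 and 8.15 CPM in treated SDS22-degron cells. All SDS22-degron libraries lay above all parental ones, and treated and untreated libraries overlapped in both lines. It was higher in SDS22-degron cells by 0.61 without (SE 0.139, edgeR adjusted p = 0.00308) and by 0.58 with Dox/IAA (SE 0.141, edgeR adjusted p = 0.00266) or 1.52-fold and 1.49-fold. The Dox/IAA changes were −0.05 (95% CI −0.33 to 0.22) in SDS22-degron and −0.02 (−0.34 to 0.29) in parental cells.

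ICAM1 encodes an adhesion receptor for leukocyte integrins. ICAM1 (chr19:10270835-10286615) was counted 2, 2 and 3 times in untreated and 4, 3 and 6 times in treated parental libraries. SDS22-degron libraries held 4, 6 and 4 reads untreated and 10, 11 and 7 treated. The treated SDS22-degron libraries were the highest and did not overlap any other group. The exact count ratio was 2.18 (1.09 to 4.59) between the treated lines and 2.17 (1.11 to 4.46) for Dox/IAA in SDS22-degron cells. It was 1.78 (0.671 to 5.20) between the untreated lines and 1.76 (0.654 to 5.22) for Dox/IAA in parental cells, so that a difference in the change between the lines was not shown. Without the filter on low counts the log2 fold change between the treated lines was 1.09 (edgeR adjusted p = 0.138) and that of Dox/IAA in SDS22-degron cells 1.09 (edgeR adjusted p = 0.116), and neither passed. ICAM1 overlaps 2 genes on the opposite strand, which had 39 and 6 reads in all against 62 for ICAM1.

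RELB and NFKB2 encode the subunits of the alternative pathway and are themselves NF-κB targets. RELB (chr19:45001430-45038198, 12 exons) was at 12.9, 12.3 and 19.1 CPM in untreated parental cells and at 18.8, 15.8 and 19.8 CPM after Dox/IAA. SDS22-degron cells were at 17.9, 18.4 and 23.6 CPM untreated and at 32.9, 25.4 and 27.1 CPM treated. The treated SDS22-degron libraries lay above all others, whereas the other 3 groups overlapped. RELB was the only gene of the 7 that was called for Dox/IAA in SDS22-degron cells, with a rise of 0.51 (SE 0.148, edgeR adjusted p = 0.00696). In parental cells the change was 0.30 (95% CI −0.04 to 0.63, edgeR adjusted p = 0.167), and both effects differed by 0.22 (−0.24 to 0.67, edgeR adjusted p = 0.557). A difference in the rise between the lines was therefore not shown.

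RELB was higher in SDS22-degron cells by 0.65 between the treated lines (SE 0.150, edgeR adjusted p = 0.00168) and by 0.43 between the untreated lines (SE 0.158, edgeR adjusted p = 0.0470). The latter call was lost without replicate 1 or 2 of untreated parental, replicate 2 or 3 of untreated SDS22-degron or replicate 1 or 3 of treated parental cells (adjusted p between 0.0509 and 0.200). Without untreated parental replicate 3, which had the highest RELB level of its group, the untreated difference was 0.68, and the rise with Dox/IAA in parental cells was 0.53 and passed (adjusted p = 0.0153).

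NFKB2 (chr10:102394110-102402529, 23 exons) encodes the precursor that RELB pairs with. It was at 95.3, 88.5 and 109 CPM in untreated parental cells and at 81.7, 83.3 and 82.2 CPM after Dox/IAA. SDS22-degron cells were at 86.5, 84.4 and 97.2 CPM untreated and at 82.0, 88.3 and 93.3 CPM treated. The lines overlapped in both states. NFKB2 decreased by 0.24 in parental cells (SE 0.0800, edgeR adjusted p = 0.0265), a call that was lost without untreated replicate 3 of this line (−0.16, adjusted p = 0.164) or its treated replicate 1 or 3 (adjusted p of 0.0677 and 0.0705). Between the treated lines it was 0.09 (95% CI −0.08 to 0.26) and between the untreated lines −0.13 (−0.29 to 0.04).

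To set the genes beside each other, CPM was divided by the exon length in kb. On this scale of levels, NFKB2 and NFKBIA were the most abundant in every group, with 19.6 ± 1.27 and 19.8 ± 1.00 CPM per kb in treated SDS22-degron cells (SD, n = 3). RELB followed with 9.38 ± 1.31. CXCL8 at 1.54 ± 0.385, TNFAIP3 at 1.26 ± 0.116, BIRC3 at 1.03 ± 0.0582 and CXCL1 at 0.879 ± 0.473 came next, and CXCL8 and TNFAIP3, or BIRC3 and CXCL1, did not differ beyond their spread. CXCL2, CXCL3 and ICAM1 were the lowest, at 0.295 ± 0.0693, 0.259 ± 0.0740 and 0.197 ± 0.0379, and neighbours among them overlapped in their spread. In treated parental cells NFKBIA was at 14.5 ± 0.727 and NFKB2 at 18.4 ± 0.176, and CXCL1 at 0.158 ± 0.137 was close to CXCL2 at 0.0683 ± 0.0592. The genes with the largest fold differences between the lines were thus among those with few reads.

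**Figure D3:**
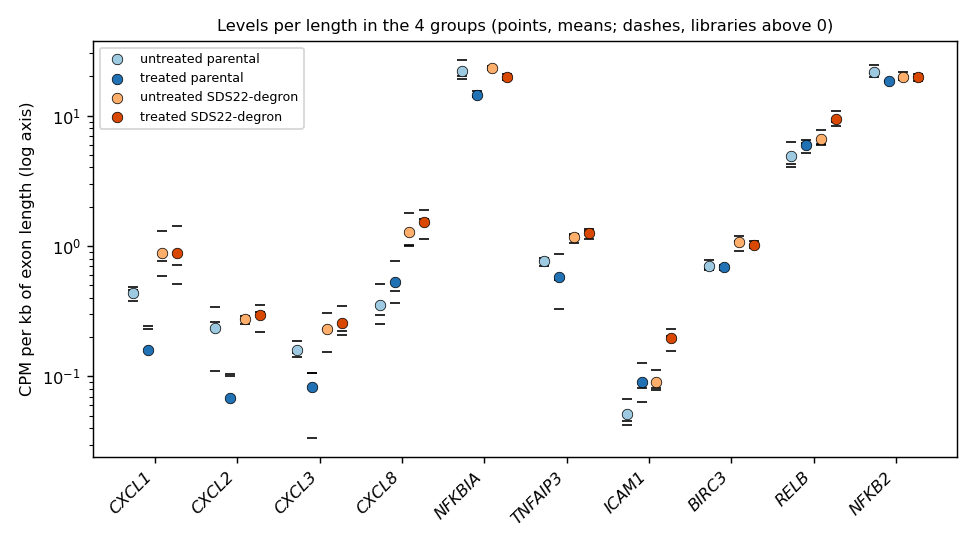
Level in CPM per kb of exon length (y axis, log) of the 10 genes (x axis) in the 4 groups. Points are means and dashes are libraries, of which those at 0 are left off. The means of NFKBIA and NFKB2 lie between 14.5 and 23.2 CPM per kb and those of ICAM1 between 0.0515 and 0.197.

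The 7 tested genes did not vary together in every pair. Over the 12 libraries, Pearson's r of log2 CPM was 0.88 between CXCL8 and BIRC3 and 0.73 between CXCL8 and TNFAIP3. It was 0.66 between NFKBIA and NFKB2, 0.21 between CXCL8 and NFKBIA and −0.20 between CXCL8 and NFKB2. Across all tested genes with a mean of at least 5 CPM, those most like CXCL8 were WDR20 (r = 0.953), PPP1R14C (0.949) and SAMHD1 (0.945). Those most like NFKBIA were SNHG20 (0.957), PVT1 (0.942) and SPARC (0.922). For CXCL1 they were the ribosomal protein gene RPL23A (0.942), LA16c-306E5.1 (0.941) and RPL23AP42 (0.931), a pseudogene of RPL23A that may share its reads. The 12 libraries fall into 4 groups, and these values therefore also describe the group means.

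The genes around these on the chromosomes were compared between the lines as well. The median log2 difference between the untreated lines was 0.04 over 660 tested genes of chromosome 4, 0.03 over 888 of chromosome 6, 0.04 over 895 of chromosome 11 and 0.00 over 1064 of chromosome 19. Over the 10 nearest tested genes, which for the chemokine genes include others of them, the median was 0.02 for CXCL8 and −0.09 for TNFAIP3. It was 0.17 for BIRC3 and 0.17 for RELB. These genes themselves, all called between the untreated lines, were at 1.81, 0.61, 0.61 and 0.43. For CXCL1, NFKBIA and NFKB2, which were not called, the median was 0.02, 0.15 and 0.15, against 0.98, 0.08 and −0.13. For CXCL2, CXCL3 and ICAM1, which were not tested, it was 0.28, 0.28 and −0.02.

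Other genes of the pathway were taken from lists that hold 176 genes in all, and 114 of these were tested. Between the treated lines 30 were higher and 21 lower in SDS22-degron cells, or 26.3% and 18.4%, near the background of 21.8% and 23.1%. Between the untreated lines 24 were higher and 26 lower, or 21.1% and 22.8%, against 13.2% and 15%. Their medians, 0.07 and 0.01, were near that of all genes. Dox/IAA raised 48 and lowered 21 in SDS22-degron cells, or 42.1% and 18.4% against 26% and 25.5%, with a median of 0.20. It raised 28 and lowered 19 in parental cells, or 24.6% and 16.7% against 15.9% and 15.7%, with a median of 0.09. The interaction was called for 13 in the higher and 6 in the lower direction, or 11.4% and 5.26% against 6.03% and 8.35%. The counts of single lists between the treated lines, given next, stand against the same 21.8% higher and 23.1% lower, and nothing particular to a list is read from them.

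Ligands were scarce. None of 11 CC chemokines passed the filter, and CCL2 had 0 reads in all libraries, as did TNF, IL6 and CXCL5. For each of these genes, this allows an expected count of up to 3 reads over all libraries together. CCL20 had 2 reads in all. Of 13 other CXCL and CX3CL ligands 1 was tested, CXCL16, a membrane-bound chemokine. CXCL16 was higher by 0.42 between the treated lines (SE 0.0871, edgeR adjusted p = 0.000687), at 108 ± 7.73 against 80.9 ± 8.82 CPM. It overlaps MED11. The GRO receptor CXCR2 had at most 5 reads in a library. CXCR4, the receptor of CXCL12, was higher by 1.11 (SE 0.350, edgeR adjusted p = 0.0146), at 1.13 ± 0.168 against 0.519 ± 0.173 CPM. Like CXCL1, CXCR4 passed the filter on low counts only through the SDS22-degron line, so this value only describes it. Its call was lost with DESeq2 (adjusted p = 0.0535) and without treated parental replicate 1 (0.0660) or treated SDS22-degron replicate 3 (0.0562). Of the 4 cytokines tested, CSF1, a macrophage growth factor, was higher by 0.80 (SE 0.157, edgeR adjusted p = 0.000440).

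Among 17 upstream receptors 4 were higher and 6 lower between the treated lines. TLR3, which senses double-stranded RNA, was higher by 0.94, whereas the protease receptor F2RL1 was at −0.64 and the TWEAK receptor TNFRSF12A at −0.48 (edgeR adjusted p of 0.000257, 1.34e-06 and 0.000490). Among 30 adaptors and kinases 6 were higher and 3 lower. IRAK1, a kinase of the interleukin-1 receptor, was at −0.73 (edgeR adjusted p = 2.39e-07) and MAP3K3, which activates the IκB kinase, at 0.72 (edgeR adjusted p = 2.47e-05). RNF31, the catalytic part of the linear ubiquitin ligase, was at 0.43 (edgeR adjusted p = 0.000270). RNF31 overlaps PSME2, and MAP3K3 overlaps LIMD2 and STRADA.

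Among 11 other NF-κB subunits and IκB proteins 2 were higher and 2 lower. NFKB1, the partner of RELA, was at −0.56 (edgeR adjusted p = 1.24e-05) and the nuclear IκB protein gene NFKBID at −0.96 (edgeR adjusted p = 0.000158), while NFKBIE was at 0.38 (edgeR adjusted p = 0.00630). Of 15 other negative regulators 3 were higher and 3 lower. TNIP1 and TAX1BP1, which encode partners of A20, were higher by 0.83 and 0.56, and ZFP36L1, which promotes the decay of AU-rich mRNAs, was at −0.63 (edgeR adjusted p of 1.30e-06, 1.04e-06 and 1.24e-05). Of 30 other known targets 12 were higher and 4 lower. The largest statistics were those of the peptide transporter gene TAP1 at 0.69 (edgeR adjusted p = 7.08e-07), RIPK4 at 0.92 (edgeR adjusted p = 1.33e-05) and the transcription factor gene IRF1 at 0.58 (edgeR adjusted p = 7.68e-05). Reads of TAP1 and IRF1 may include those of the overlapping genes PSMB9 and C5orf56.

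Chemokine mRNAs carry AU-rich elements, and 5 genes for proteins that bind these were listed as well. Between the treated lines 0 were higher and 3 lower. HNRNPD was at −0.72 (edgeR adjusted p = 2.01e-06), KHSRP at −0.25 (edgeR adjusted p = 0.00343) and ELAVL1 at −0.21 (edgeR adjusted p = 0.0140). The call of ELAVL1 was lost without replicate 2 of treated parental or of treated SDS22-degron cells (adjusted p of 0.0564 and 0.0726). Whether these values have a part in those of the chemokines was not tested.

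**Figure D4:**
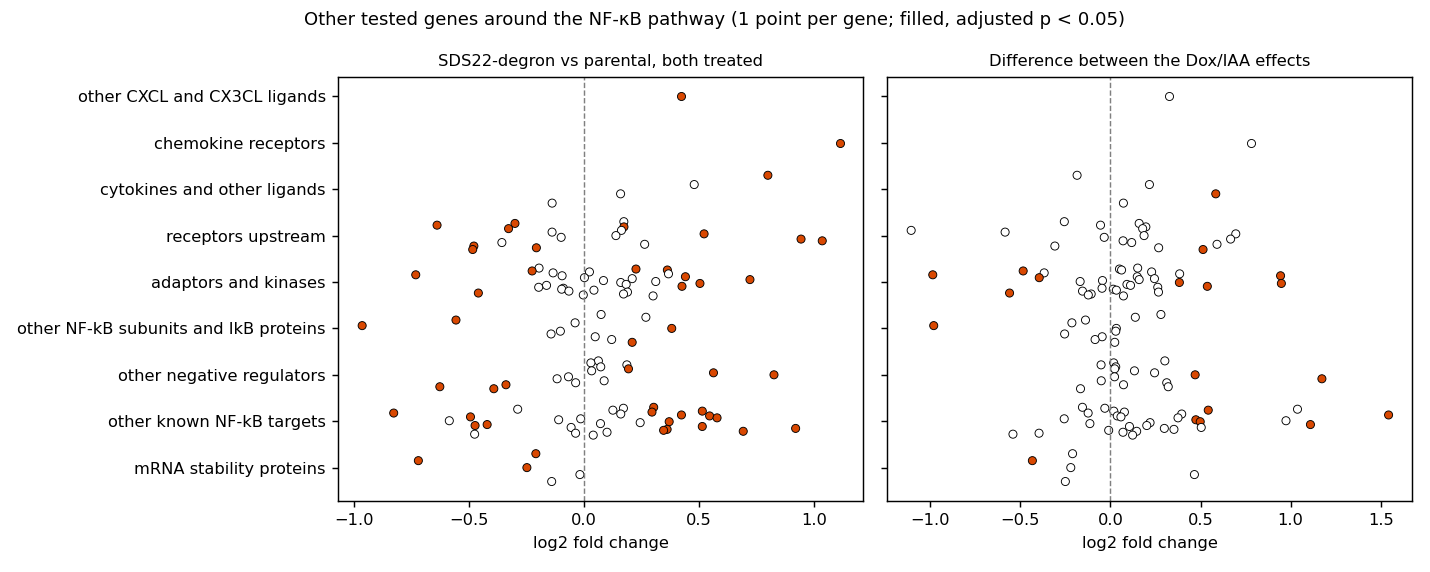
Log2 fold changes (x axis) of the 114 other tested genes, by list (y axis; height within a list has no meaning), between the treated lines (left) and as the difference of both Dox/IAA effects (right). Filled points have an adjusted p under 0.05. On the left 30 filled points lie above 0 and 21 below, and on the right 13 and 6.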

How the data were processed

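The table that the authors deposited holds, for each gene and library, the raw read count with no normalization. Per the labels, the submitters' processing notes name cutadapt 1.15, Bowtie2 2.3.3.1, STAR 2.5.2b, SAMtools 1.5, featureCounts 1.5.3 and the build GRCh38, and the libraries were stranded and poly-A selected. The strand setting of the counting is not given in the sources used here, so overlapping genes on opposite strands are named. The deposited GC content, in percent, served the GC correction.

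Groups came from the labels, which call the samples biological replicates. Genes were filtered with filterByExpr (minimum count 10), scaled by TMM and fitted in edgeR 4.0.16 under R 4.3.3 (1 mean per group, quasi-likelihood F test, Benjamini-Hochberg adjustment over 16657 genes). The median SE of a log2 fold change was 0.110. Log2 CPM for correlations used a prior count of 2. Intervals of count ratios are exact binomial. Sequences came from RefSeq (GRCh38.p14), and transcript stretches from GENCODE on GRCh37, without coordinates. The procedure was also run on simulated counts with the same spread for all genes and no replicate effect, unlike these data. No result given here rests on that run. Deviations of same-numbered libraries correlated above 0.1 in 3 of 3 pairs between the treated lines (0.16 to 0.27), between the untreated lines (0.15 to 0.32) and within parental cells (0.25 to 0.53), and in 1 of 3 within SDS22-degron cells. This pairing comes from the values, not from the labels. The block is given beside a result of a named gene or of the summed chemokines where it changes a call.

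The members and lists were chosen with earlier results of these data known. Named were all members and, per list, up to 3 called genes of smallest p in the treated comparison and up to 3 in the interaction. Alternatives were other normalizations, filters and tests (DESeq2 1.42.0 among them), a replicate block, a GC correction, only the groups compared, each library left out, and the study's threshold (a log2 fold change over 1 in either direction at an unadjusted p under 0.05).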

Additional observations from a re-analysis of the deposited data

Results flagged for a closer look

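By the interaction term of edgeR, a different Dox/IAA effect in SDS22-degron and parental cells was called for none of the 7 NF-κB targets tested. Of the 114 other tested genes, 13 were called in the higher and 6 in the lower direction. These are 11.4% and 5.26%, against 6.03% and 8.35% of all tested genes. The 12 called genes given below were named because they were called, so their number is itself no result. Without the filter on low counts, a fit that was less strict for CXCL1, the interaction was called for NFKBIA (0.37, edgeR adjusted p = 0.0484, against 0.0820 with the filter). The values are log2 differences of the Dox/IAA effects. ELF3, an epithelial transcription factor gene, was at 1.54 (SE 0.170, edgeR adjusted p = 2.76e-05). It went from 62.8 ± 9.98 to 30.2 ± 5.21 CPM in parental and from 28.9 ± 0.316 to 40.5 ± 3.10 CPM in SDS22-degron cells, and it overlaps ELF3-AS1. PLAU, the urokinase gene, was at 1.11 and TRIB3 at 1.17 (edgeR adjusted p of 0.000484 and 0.0171). Both fell in parental cells, PLAU from 166 ± 40.3 to 80.7 ± 9.09 CPM and TRIB3 from 132 ± 61.9 to 74.6 ± 16.2 CPM. Without untreated parental replicate 1 the value of TRIB3 was 0.73 (edgeR adjusted p = 0.0281).

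IRAK1 was at −0.99 (SE 0.10, edgeR adjusted p = 1.46e-05). Its level went from 174 ± 8.48 to 189 ± 8.47 CPM in parental and from 208 ± 11 to 114 ± 9.67 CPM in SDS22-degron cells. NFKBID, which overlaps AD000864.6, was at −0.98 (edgeR adjusted p = 0.00878) and HNRNPD at −0.43 (edgeR adjusted p = 0.0197). RBCK1 was at 0.95 (edgeR adjusted p = 0.00139) and RNF31 at 0.54 (edgeR adjusted p = 0.00364). Both encode parts of the linear ubiquitin ligase, to which SHARPIN also belongs. SHARPIN was at 0.26 (edgeR adjusted p = 0.166) and was not called.

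NINJ1 was at 0.50 (edgeR adjusted p = 0.00632). IL18 was at 0.58 (edgeR adjusted p = 0.0178), a call lost without untreated parental replicate 1 (adjusted p = 0.0558), untreated SDS22-degron replicate 3 (0.0558) or treated SDS22-degron replicate 2 (0.0541). TNFRSF21 was at 0.51 (edgeR adjusted p = 0.0173), lost without untreated parental replicate 3 (0.0566) or untreated SDS22-degron replicate 1 (0.0617). TNIP1 was at 0.47 (edgeR adjusted p = 0.0233). Its call was lost without untreated parental replicate 3 (0.0679), treated parental replicate 2 (0.0555), untreated SDS22-degron replicate 1 or 2 (0.0795 and 0.0864) or treated SDS22-degron replicate 3 (0.0769). Groups of 3 are too small for a check of single libraries that stand apart.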

How the results depend on the processing

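Of 1809 recomputed values, 1698 kept their direction and their side of the threshold or, for counts of genes, stayed within 1.5 times. The 6 calls between the treated lines were kept under every alternative that gave a value except the study's threshold, under which 3 remained, CXCL1, CXCL8 and TNFAIP3. CXCL1 did not pass the filter at 1 CPM and passed the main filter only through the SDS22-degron line, so its calls only describe it. Under the study's threshold the counts of the 10 genes were 1 between the untreated lines and 0 for Dox/IAA in each line. Those of the 114 other genes were 2, 7, 6, 4 and 4, in the order treated lines, untreated lines, SDS22-degron, parental and interaction. The share of all tested genes that passed the study's threshold was not computed, so nothing is read from the counts under it.

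Dox/IAA in SDS22-degron cells called 2 genes without the filter, with the replicate block, with the GC correction, with both, or with only the groups compared, NFKBIA being the second. In parental cells 1 was called by library size only and with only the groups compared. The interaction called 1 without the filter, with the GC correction and with it and the block. This last fit called 30 of the 114 other genes, against 19 in the main fit. Over all tested genes the interaction was called for 19.9% in this last fit, against 14.4% in the main fit. For the sum of CXCL1, CXCL2 and CXCL3 the interaction passed with the likelihood ratio test (1.44, adjusted p = 0.0384), without the filter (1.44, 0.0279), with the replicate block (1.45, 0.0361) and with the block and the GC correction (1.45, 0.0336).

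Leaving out each library in turn gave 2 to 4 called genes between the untreated lines, 1 to 2 in SDS22-degron and 1 to 3 in parental cells, and 0 to 1 in the interaction. The summed chemokines ranged from −0.29 to 0.27 in SDS22-degron and from −1.71 to −1.05 in parental cells, and from 1.07 to 1.79 in the interaction. Signs turned for values near 0: with Dox/IAA in SDS22-degron cells, CXCL1 (−0.50 to 0.39), BIRC3 (−0.168 to 0.0197) and NFKB2 (−0.0847 to 0.0258, and 0.0157 by library size only), with Dox/IAA in parental cells BIRC3 (−0.0658 to 0.0462, 0.0356 by library size only and 0.00050 with the upper quartile), and in the interaction CXCL8 (−0.66 to 0.10), BIRC3 (−0.14 to 0.0443, 0.0294 with the GC correction and 0.0326 with it and the block) and RELB (−0.0298 to 0.34). The causes were not tested.

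The labels do not say what the replicate numbers share. Over all groups 11 of 18 pairs of libraries with the same number had a correlation of their deviations above 0.1 (−0.07 to 0.53), and each of the 12 libraries correlated best with its own number. Of the 7 tested genes, the replicate block alone changed only the call of NFKBIA in SDS22-degron cells. It also changed that of the summed chemokines in the interaction, and none of the calls given for other genes by name. Of the 114 other genes it called 26 in the interaction, against 19 without it. Over all tested genes it called 18.8% in the interaction, against 14.4%. CXCL1, CXCL2, CXCL3 and ICAM1, with at most 24 reads per library, are limited by depth.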
